A study of Mus musculus with 12 samples.

Results

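The 12 arrays of this series fell into a set of 5 with a high RNA level of the metallothionein gene Mt1 and a set of 7 with a low level. The sets were chosen by a measured value, the level of Mt1: an array with a log2 level of 9 or more at the Mt1 probe set 1422557_s_at was placed in the high set, and an array below 9 in the low set. The lowest Mt1 level in the high set was 9.6 and the highest in the low set was 7.4, a gap of 2.2 in log2. Because Mt1 on these same arrays defined the sets, each difference between them is a description without a test. The cells were ET cells, which the labels call a fetal mouse cortical thymic epithelial line, and the labels give no genotype for them. Near-confluent cultures received either 5 nM TCDD, a dioxin that activates the aryl hydrocarbon receptor (AhR), or 1,4-dioxane at 0.05% by volume, the solvent control. Total RNA was taken after 2, 4 or 6 h, and 2 arrays were made for each of these 6 combinations. The design text names these biological duplicates, but it does not say where the cultures were separated, so part of the spread may be technical.

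The high set held 3 TCDD and 2 solvent arrays. These were, at both 2 h and 6 h, the second array of each treatment, and at 4 h the first TCDD array. The low set held 3 TCDD and 4 solvent arrays, among them both solvent arrays of 4 h. In 5 of 6 groups, therefore, 1 array of each set shared treatment and time, and these made 5 matched pairs. Of the 5 high arrays 4 carried the replicate number 2 and 1 carried the number 1. At 2 h and 6 h the set and the replicate number cannot be told apart. Labels of 3 arrays disagreed within themselves: the second 4 h TCDD array, a low array, has the solvent in its treatment field, and both 6 h solvent arrays are given 4 h in their description and protocol. The groups used here follow the titles. For the second 4 h TCDD array the level of the AhR target Cyp1a1, given below, went with its title.

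Metallothioneins are small cysteine-rich proteins that bind zinc, copper and cadmium and buffer the cell's free zinc. Transcription of Mt1 and Mt2 rises with free zinc through the factor MTF1, which binds metal response elements upstream of both genes, and also with glucocorticoids and oxidative stress. Ptgs2 encodes cyclooxygenase 2, the inducible enzyme of prostaglandin synthesis, and Hmox1 encodes haem oxygenase 1, an enzyme that degrades haem and is induced by oxidants and heavy metals.

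The regions around the transcription starts of Mt1 and Mt2 are shown because these genes carried the largest differences between the sets. Each run covers 250 bases before the start and 30 after it, 5′ to 3′, from RefSeq on build GRCm38.p6. Mt1 is at chr8:94178839-94179118 and Mt2 at chr8:94172368-94172647, both on the plus strand. Capitals mark matches to the core of the metal response element, searched as TGCACNC and TGCGCNC on both strands; a match on the minus strand is printed in plus-strand letters.
Mt1: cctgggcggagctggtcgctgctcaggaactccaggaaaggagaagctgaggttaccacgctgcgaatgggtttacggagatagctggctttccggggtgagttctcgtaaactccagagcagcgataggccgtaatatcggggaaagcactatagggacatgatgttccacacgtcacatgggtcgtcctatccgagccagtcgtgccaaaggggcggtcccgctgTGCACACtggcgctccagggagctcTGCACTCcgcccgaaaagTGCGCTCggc
Mt2: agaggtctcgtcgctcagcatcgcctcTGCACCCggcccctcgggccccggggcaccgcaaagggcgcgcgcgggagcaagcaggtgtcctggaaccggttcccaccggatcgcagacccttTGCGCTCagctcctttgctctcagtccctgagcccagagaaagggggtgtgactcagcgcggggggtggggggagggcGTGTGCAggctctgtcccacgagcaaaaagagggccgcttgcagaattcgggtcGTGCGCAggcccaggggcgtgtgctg
The Mt1 window held 3 cores and the Mt2 window 4. In Mt1 the first bases of the cores lay at -23, 3 and 21 from the RefSeq start, and other starts of the gene were not examined. In Mt2 they lay at -223, -128, -50 and 5, and an AP-1 motif, TGACTCA, began at -79. Such short motifs are common: 24.1% of 32851 RefSeq windows of the same length held at least 1 core, and among windows of genes tested here the share was 32.9%. A match in these letters describes the sequence, and whether it is bound was not tested.

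Values were deposited log2 levels per probe set, rounded to 1 decimal, and every array had the same median, 5.1, which hides any change common to all genes. Of 22626 non-control probe sets, 15762 had a mean of at least 4 over the 12 arrays and were examined. The 4 h TCDD group stood apart: its 2 arrays differed by 1 or more in log2 at 2052 probe sets (13.0%), against 395 to 439 in the other groups that held 1 array of each set and 9 (0.0571%) between the 2 solvent arrays of 4 h, which were both low. Control probe sets moved with the sets as well. The 3′ minus 5′ difference of the actin control, a measure of RNA integrity, was 0.5 to 0.6 on the high arrays and 0.7 to 0.8 on the low arrays without overlap, while that of Gapdh was 0 to 0.1 and 0 to 0.2. The mean of 9 hybridisation controls, spiked in at a fixed amount, was lower on the high array in 5 of 5 pairs, with ranges of 9.20 to 10.13 and 9.51 to 11.02. The part of these values in the differences below was not tested. In bulk cultures, a different number of cells of a kind and a different RNA level per cell cannot be told apart.

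**Figure D1:**
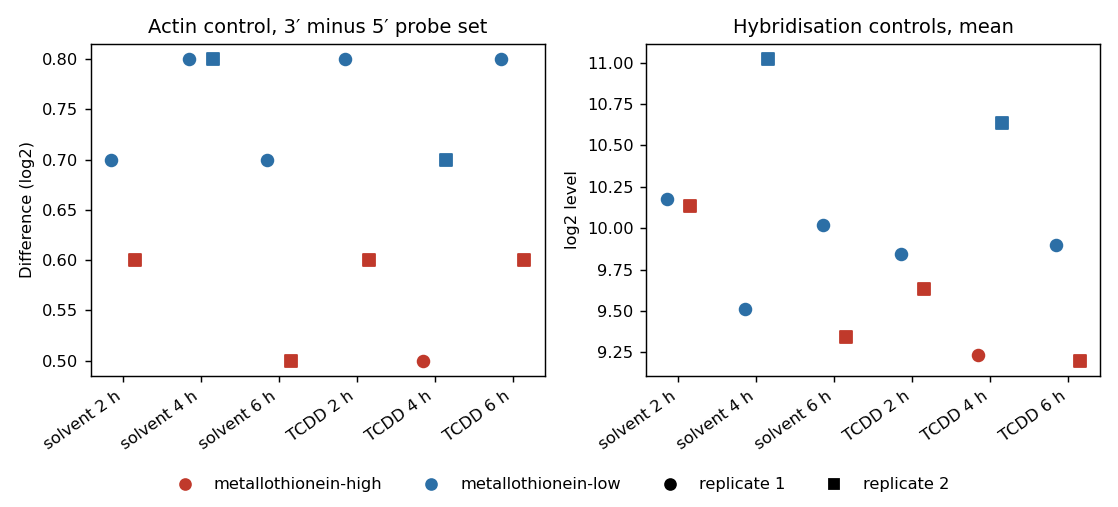
Control probe sets on each of the 12 arrays, by group of treatment and time (horizontal axis). Left, the 3′ minus 5′ log2 difference of the actin control; right, the mean log2 level of 9 hybridisation controls; red marks the metallothionein-high and blue the metallothionein-low arrays, circles replicate 1 and squares replicate 2. The actin difference was at most 0.6 on every high array and at least 0.7 on every low array.

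Mt1 and Mt2 stood far apart between the sets in both treatments and at every time with a matched pair. On the high arrays Mt1 (1422557_s_at) had log2 levels of 10.5 in solvent and 9.6 with TCDD at 2 h, 10.1 with TCDD at 4 h, and 10.8 in solvent and 10.6 with TCDD at 6 h. On the 7 low arrays it ran from 7.1 to 7.4 with a median of 7.3. The gap between the sets was thus many times the range within the low set, and the high set itself spread over more than 1 log2 unit. The mean pair difference was 3.02 ± 0.51 in log2 (SD, n = 5 pairs), an 8.11-fold higher level. Mt2 (1428942_at), which did not enter the rule, had levels of 9.6, 8.9, 8.9, 10.7 and 10.5 on the same high arrays and of 6.4 to 6.8, median 6.7, on the low arrays. Its mean pair difference was 3.10 ± 0.78, or 8.57-fold, and a split by Mt2 placed 12 of 12 arrays as Mt1 did. The highest levels of both genes were those of the 6 h arrays. Without the 4 h TCDD pair the mean differences were 3.10 for Mt1 and 3.30 for Mt2. The probe set of the rule can match more than 1 transcript, as its suffix says. A second Mt1 probe set, 1451612_at, near the low end of the scale, read 4.9 to 5.9 on the high and 4.4 to 4.7 on the low arrays, a mean difference of 0.72 ± 0.47.

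**Figure D2:**
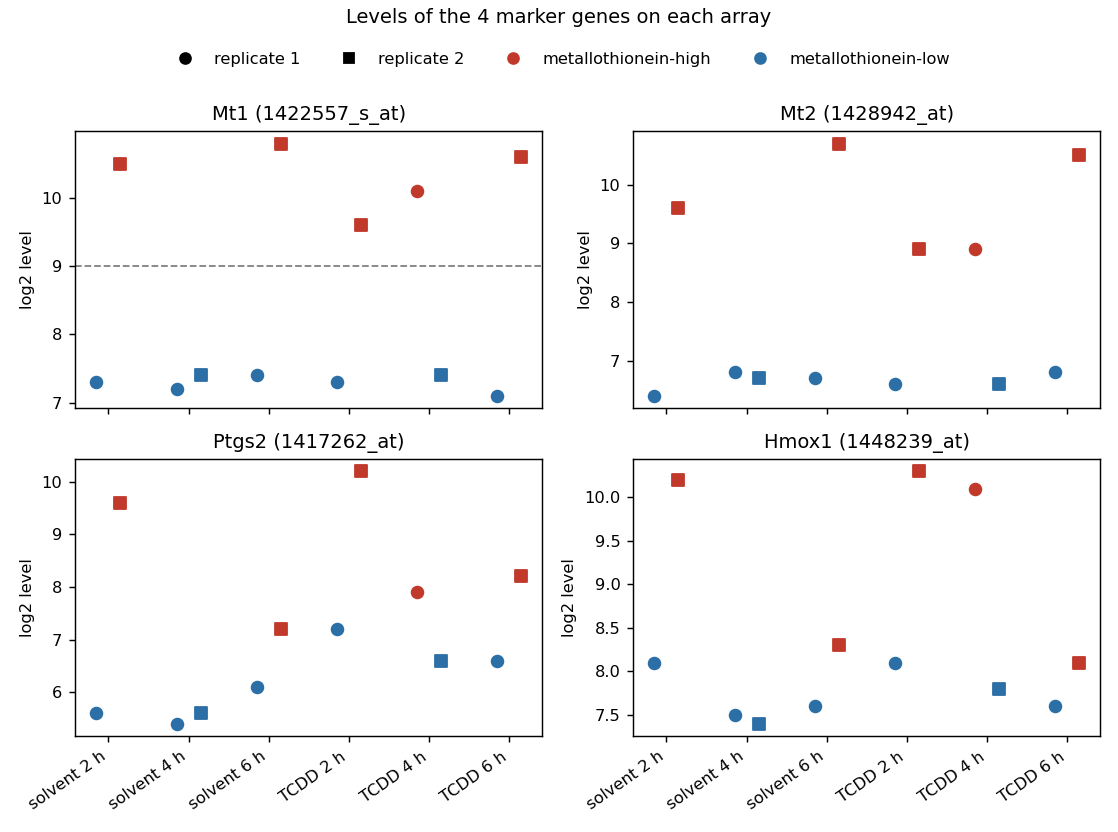
Log2 level of Mt1, Mt2, Ptgs2 and Hmox1 on each array (vertical axes) by group of treatment and time (horizontal axis); red marks metallothionein-high and blue metallothionein-low arrays, circles replicate 1 and squares replicate 2, and the dashed line the threshold of 9. Mt1 and Mt2 part the 5 high from the 7 low arrays, whereas Ptgs2 and Hmox1 are highest on the high arrays of 2 h and overlap the low arrays in part.

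The other genes of zinc handling did not follow the metallothioneins in size. Of 22 genes listed for metallothioneins and zinc transport, 20 were on the array and 17 passed the filter on low levels; Mt4 was among those below it. Mt1 and Mt2 alone met the call used here, a mean pair difference of at least 1 in size with the same sign in 5 of 5 pairs, which 0.711% of all probe sets met and which the choice of the sets fixed for Mt1. The median over the 17 genes was 0.02, as it was over all probe sets. Slc30a1, the zinc exporter of the plasma membrane and a textbook target of MTF1, was closest in mean difference: it stood at 5.8, 5.3, 5.4, 4.6 and 4.6 on the high arrays and at 4.1 to 4.5, median 4.4, on the low arrays, a difference of 0.84 ± 0.43 without overlap. These levels lay near the low end of the scale. At 6 h, where Mt1 and Mt2 were highest, Slc30a1 on the high arrays was nearest to the low set. Mtf1 itself was higher by 0.30 ± 0.19 at one probe set and by 0.82 ± 0.45 at the other, which has the lower level. Mt3, the metallothionein best known from brain, was higher by 0.34 ± 0.21. The zinc importer gene Slc39a14 was higher by 0.14 ± 0.09 at the brighter of its probe sets, and Slc30a9, a mitochondrial zinc transporter gene, stood lower by -0.38 ± 0.27. The remaining transporters had mean differences from -0.24 to 0.16, all with overlapping sets.

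Ptgs2 and Hmox1 also stood higher on each high array than on its low partner, with a different course over time. Ptgs2 (1417262_at) was at 9.6 and 10.2 on the high solvent and TCDD arrays of 2 h, at 7.9 with TCDD at 4 h, and at 7.2 and 8.2 in solvent and TCDD at 6 h. The low arrays ran from 5.4 to 7.2 with a median of 6.1, and the highest of them was the 2 h TCDD array, so the sets touched. The mean difference was 2.20 ± 1.25, or 4.59-fold, and a second probe set gave 1.96 ± 1.01 without overlap. Hmox1 read 10.2, 10.3 and 10.1 on the high arrays of 2 h and 4 h but 8.3 and 8.1 on those of 6 h, against 7.4 to 8.1 on the low arrays. The high TCDD array of 6 h was therefore level with the highest low arrays. The mean difference of Hmox1 was 1.56 ± 0.88, or 2.95-fold.

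In all, 112 of 15762 probe sets (0.711%) met the call, 64 of them higher (0.406%, 48 named genes) and 48 lower (0.305%, 38 named genes) in the high set. Of the 112, 80 did not overlap between the sets, and without regard to size 812 probe sets (5.15%) did not overlap, 314 higher (1.99%) and 498 lower (3.16%). Leaving out the 4 h TCDD pair gave 66 higher and 33 lower, and leaving out the 2 h solvent pair gave 71 and 146, so the count of lower probe sets changed more than that of higher ones. With fewer pairs the call asks for the same sign in fewer of them, so a count can rise for that reason alone. Over all probe sets, differences of different pairs correlated with r from -0.06 to 0.71, highest between the solvent and TCDD pairs of 6 h and lowest between the 2 h solvent and 4 h TCDD pairs; these are descriptions across genes, which are not independent. Of 86 called genes 47 had several probe sets, all of which were called for 13; in Ahr, Rbpms and Synpo they pointed opposite ways.

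**Figure D3:**
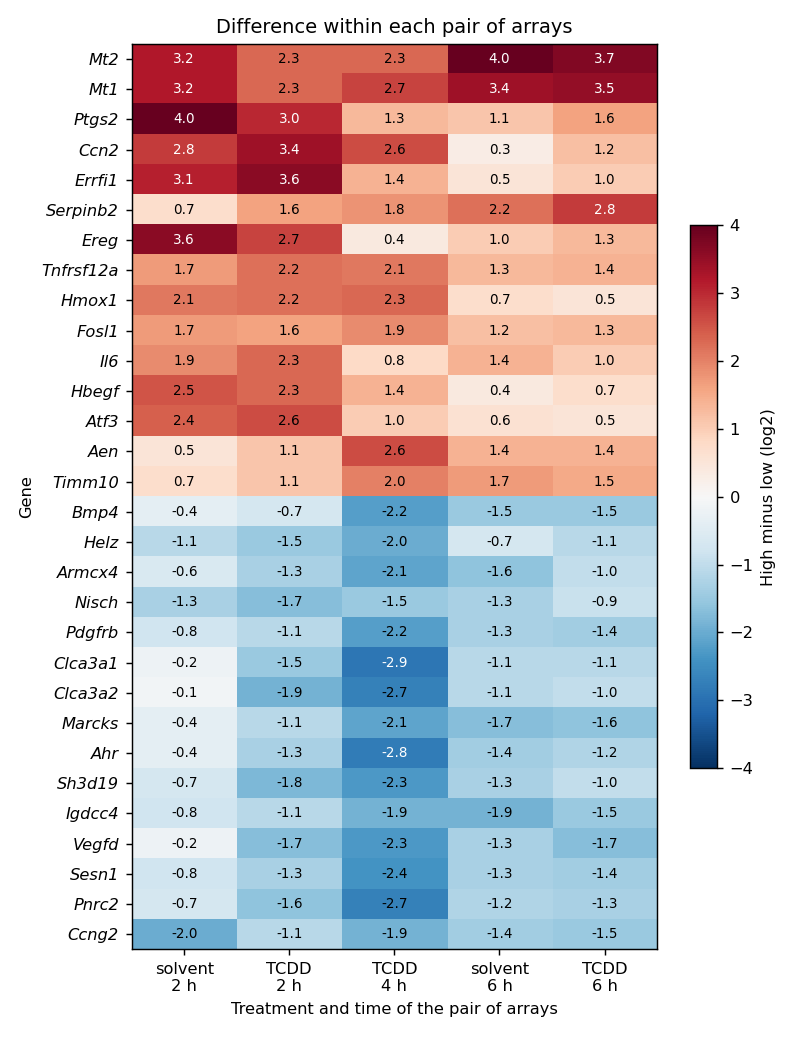
High minus low log2 difference in each of the 5 pairs (columns, by treatment and time) for the 15 genes with the largest higher and the 15 with the largest lower mean difference among those called (rows), with red for higher and blue for lower in the high set. Each gene is shown at its called probe set with the largest difference. The rows of Mt1 and Mt2 are dark in every column, those of Ptgs2, Ccn2, Errfi1 and Ereg are darkest in the 2 h pairs, and many lower genes are darkest in the 4 h TCDD pair.

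After the metallothioneins and Ptgs2, Ccn2 had the largest mean difference. Ccn2, a secreted matricellular protein also known as connective tissue growth factor, stood at 12.4, 12.7, 11.2, 9.9 and 9.5 on the high arrays and at 8.3 to 9.6, median 9.3, on the low arrays. Its difference of 2.06 ± 1.27 came from 2 h and 4 h, and at 6 h the sets met. Tnfrsf12a, the receptor of the cytokine TWEAK, was steadier: it read 11.5, 11.5, 11.2, 10.7 and 10.6 against 9.1 to 9.8, median 9.4, a difference of 1.74 ± 0.40 without overlap, and a second probe set gave the same mean. Serpinb2, the plasminogen activator inhibitor PAI-2, ran the other way in time, with a mean pair difference of 1.15 at 2 h and 2.50 at 6 h. Its levels were low, 3.9 to 6.5 on the high arrays and 3.2 to 3.9 on the low ones, so its mean difference of 1.82 ± 0.78 starts near background. Il6, an inflammatory cytokine, was higher by 1.48 ± 0.62 in 5 of 5 pairs with touching sets. Timm10, a chaperone of mitochondrial protein import, was higher by 1.40 ± 0.51, and Aen, a nuclease induced by p53, by 1.40 ± 0.76, both without overlap.

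Genes of the immediate early response, which are transcribed within minutes of a growth factor or stress signal, stood higher on the high arrays of 2 h. Of 27 tested, 26 had a mean difference above 0 (50.6% of all probe sets did) and 6 were called higher (0.406% of all), with a median of 0.64 that was 1.25 in the 2 h pairs and 0.05 in the 6 h pairs; for all probe sets these medians were 0.02, 0 and 0. Atf3, a stress-induced repressor, read 6.8, 7.0, 5.3, 5.1 and 4.6 on the high arrays and 4.1 to 4.5 on the low arrays, and the last of the high values was 0.1 above the highest low one. Dusp6, a phosphatase that restrains ERK, was higher by 1.38 ± 1.04 and Ier3, a survival factor induced by stress, by 1.26 ± 0.66, both without overlap. Fosl1, which encodes the AP-1 subunit Fra-1, was higher by 1.26 ± 0.19 at its brighter probe set, with means of 1.20 at both 2 h and 6 h and with overlap, and by 1.54 ± 0.29 at the dimmer 1417488_at, with means of 1.65 and 1.25 and without overlap. Fos and Egr1, the best-known members, had means of 0.98 and 0.66 and were not called.

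Ligands and feedback inhibitors of the epidermal growth factor receptor (EGFR) gave 3 called higher of 13 tested, against 0.406% of all probe sets. Ereg, which encodes the ligand epiregulin, was at 8.5, 9.6, 6.8, 6.9 and 8.0 on the high arrays and at 4.7 to 6.9, median 5.9, on the low arrays, a difference of 1.80 ± 1.31 with overlap. Hbegf, the heparin-binding ligand, was higher by 1.46 ± 0.93 and Errfi1, an intracellular inhibitor of the receptor, by 1.92 ± 1.36, both without overlap. The receptor gene Egfr itself differed by 0.08. The median of the list was 0.50, with 0.25 in the 2 h pairs and 0.10 in the 6 h pairs. Of the 13 genes 10 had a mean above 0 (50.6% of all probe sets did), while Spred2 stood at -0.68, Spry1 at -0.48 and Tgfa at -0.06.

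Among the genes that stood lower, the largest mean differences were smaller in size than among the higher ones. Of the 48 lower probe sets, 14 were larger in size at 2 h than at 6 h. For this count no share over all probe sets was computed, and nothing is read from it. Ccng2, which encodes cyclin G2, a cyclin linked to cell cycle arrest, read 5.4, 6.0, 5.9, 6.1 and 5.8 on the high arrays and 7.1 to 7.8, median 7.5, on the low arrays. It was lower in each pair by 1.1 or more, a mean of -1.58 ± 0.37, and a second probe set gave -1.0 ± 0.27. Sesn1, encoding sestrin 1, a stress-induced inhibitor of mTORC1, stood at -1.44 ± 0.59 at the probe set with its largest difference. At its brightest probe set it stood at -1.08, and all 3 of its called probe sets were without overlap. Pdgfrb, a platelet-derived growth factor receptor, was at 7.2, 6.8, 5.8, 6.9 and 6.7 against 7.9 to 8.2, a difference of -1.36 ± 0.52, with -0.30 at a dimmer probe set. Pnrc2, a factor of mRNA decapping, stood at -1.50 ± 0.74, Vegfd, a growth factor of lymphatic vessels, at -1.44 ± 0.78, Marcks, a substrate of protein kinase C, at -1.38 ± 0.65, and Bmp4, a bone morphogenetic protein, at -1.26 ± 0.72. Pnrc2, Vegfd and Marcks have several probe sets, and each is given at the called one with the largest difference. Clca3a1 and Clca3a2 are near-identical neighbours of 1 family, so their equal means of -1.36 may come from shared RNA. For 31 of the 48 lower probe sets the largest size was that of the 4 h TCDD pair, which had the widest spread over all probe sets. It was also most often the largest pair among the 64 higher probe sets, at 19 of them. The share over all probe sets was not computed. Without the 4 h TCDD pair the means of Pnrc2, Sesn1 and Marcks were -1.20 each and that of Nisch, which binds integrins, was -1.30.

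The receptor of TCDD was itself among the lower genes at 1 probe set. Ahr (1422631_at) read 7.2, 5.1, 4.8, 6.6 and 6.6 on the high arrays and 6.4 to 8.0, median 7.6, on the low arrays, a difference of -1.42 ± 0.87 with overlap. Its other probe set, 1450695_at, lay near background at 4.32 and 4.20 on average and pointed the other way by 0.12. Of the 12 genes tested in the list of known AhR targets, which also holds Ahr itself and Arnt, none was called higher. Cyp1a1, the classical target, was at 4.0 to 5.5 on the 6 solvent arrays and at 9.3 to 11.1 on the 6 TCDD arrays. These 6 TCDD arrays include the second of 4 h, whose treatment field names the solvent. Its Cyp1a1 level was thus that of its title. Between the sets Cyp1a1 overlapped, and within pairs it was higher on the high array by 0.3 to 1.3, a mean of 0.74 ± 0.43.

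**Figure D4:**
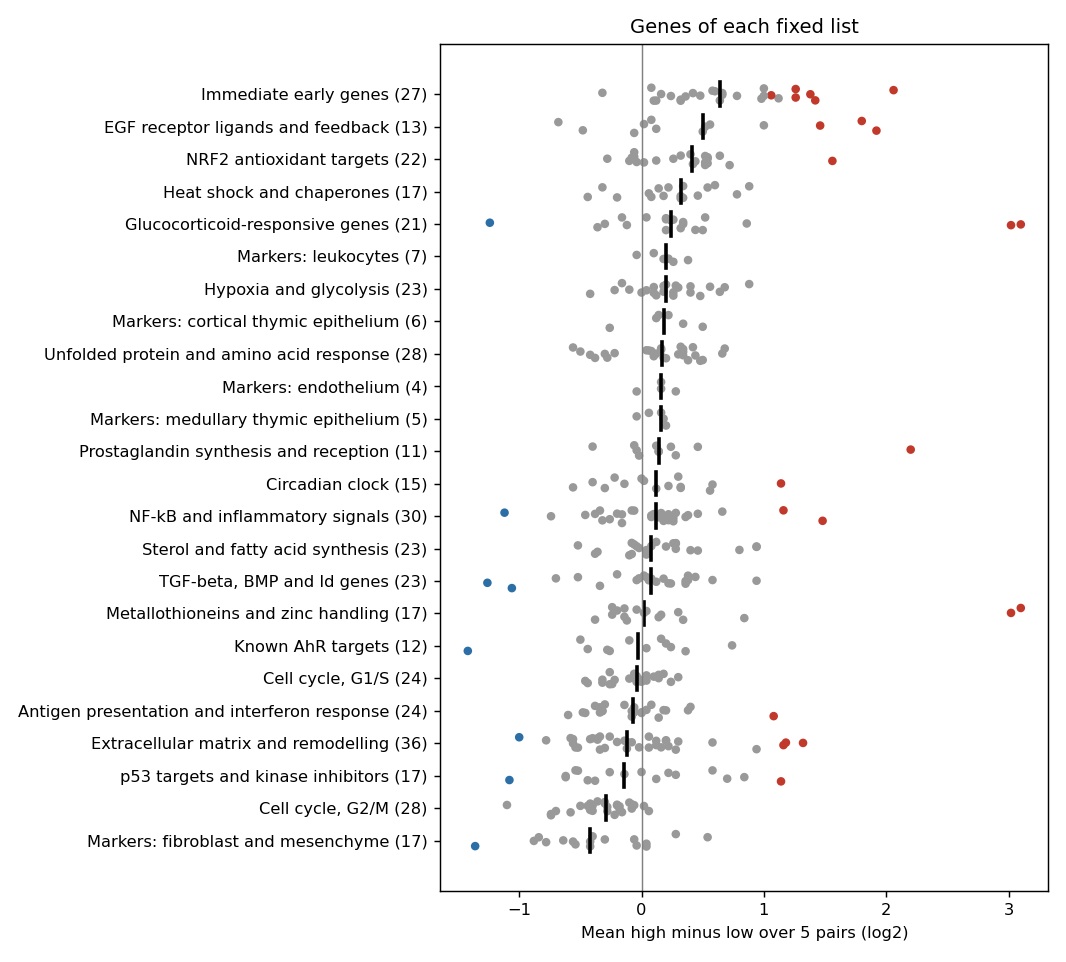
Mean high minus low log2 difference over 5 pairs (horizontal axis) for each tested gene of each list (rows, with the number of genes), sorted by the list's median (black bar); red points were called higher and blue points lower. Mt1 and Mt2 lie alone at about 3, the immediate early list is centred at 0.64, and the fibroblast and mesenchyme list at -0.42.

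The other gene lists held 0 to 4 called members each, against 0.711% of all probe sets; in lists of this size 1 member already passes that share, so nothing is read from such counts. NRF2 targets, the antioxidant genes, gave 1 of 22, Hmox1, with a median of 0.41; Gclm, a subunit of the enzyme that makes the glutathione precursor, was higher by 0.72 ± 0.26 in 5 of 5 pairs but below the size for a call. Heat shock genes gave 0 of 17 at their brightest probe sets, with a median of 0.32 and Hsph1, a large chaperone, highest at 0.88 ± 0.41. Prostaglandin genes other than Ptgs2 gave 0 of 10 called. The glucocorticoid-responsive list had 2 higher of 21, which were Mt1 and Mt2 themselves, and 1 lower, Pdk4, a kinase that restrains glucose oxidation, at -1.24 ± 0.49. NF-kB and inflammatory genes gave 2 higher (Il6 and Lif) and 1 lower (Saa3, an acute-phase protein, at -1.12 ± 0.61) of 30, and p53 targets gave Cdkn1a, the cell cycle inhibitor p21, higher by 1.14 ± 0.36 and Sesn1 lower of 17. Matrix genes gave 3 higher and 1 lower of 36, led by Timp3, an inhibitor of metalloproteinases, at 1.32 ± 0.54, and TGF-beta and BMP genes 2 lower of 23, Bmp4 and Ltbp2. Antigen presentation genes gave Cd74, the class II invariant chain, alone of 24, at 1.08 ± 0.20, and clock genes Bhlhe40 alone of 15, at 1.14 ± 0.47.

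None of 28 genes of the unfolded protein response, 23 of hypoxia and glycolysis, 23 of sterol synthesis, 24 of the G1/S phase and 28 of the G2/M phase was called, with medians of 0.17, 0.20, 0.08, -0.04 and -0.29. For G2/M genes, 26 of 28 had a mean below 0 (46.4% of all probe sets did), although the largest, Nusap1 at -1.10 ± 0.97 and Bub1 at -0.74 ± 1.42, owed their size to the 4 h TCDD pair, and without that pair the median was -0.16.

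Marker genes were looked up for the cell type named in the labels, and whether they bear the label out was not tested. Of 15 cortical thymic epithelial markers on the array 6 passed the filter, as did 5 of 11 medullary ones, 7 of 16 of leukocytes and 4 of 10 of endothelium. Of 18 markers of fibroblasts and mesenchyme 17 passed. The 6 cortical markers that passed were Krt8, a keratin, Foxn1, the thymic epithelial transcription factor, Ccl25, Ctsl, Cxcl12 and Dll4. Those below the filter or off the array included Psmb11, a thymoproteasome subunit, Prss16, a thymic protease, Ly75 and the epithelial genes Krt18, Epcam and Cdh1. Levels of different probe sets have no common scale, so the lists are not ranked against each other. The mean level of the cortical markers was 4.99 to 5.06 on the high and 4.90 to 4.95 on the low arrays, and that of the mesenchymal markers 8.77 to 9.38 and 9.31 to 9.56. Mesenchymal markers were the list with the lowest median, -0.42 (-0.35 without the 4 h TCDD pair), with 7 of 17 lower in 5 of 5 pairs (8.93% of all probe sets were) and Pdgfrb called. Pdgfra, the other receptor of the family, stood at -0.84 ± 0.65 and Dcn, a matrix proteoglycan, at -0.88 ± 1.38. Not all members were lower: 4 of 17 had a mean above 0, Thy1 at 0.54, Twist1 at 0.28, and Vim and Acta2 at 0.04 each. None of the leukocyte, endothelial, cortical and medullary markers was called. The part of cell composition in the set difference was not tested.

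The split was also examined within each treatment. Of the 64 higher probe sets 45 had a mean of 1 or more in both the 3 TCDD and the 2 solvent pairs, and of the 48 lower 19 reached that size in both. All of them were called by their mean over these same pairs. No share over all probe sets was computed, so nothing is read from these counts. Mt1 differed by 2.83 in TCDD and 3.30 in solvent pairs, Mt2 by 2.77 and 3.60, Ptgs2 by 1.97 and 2.55 and Hmox1 by 1.67 and 1.40. A moderated test of set by treatment (limma, all 12 arrays, Benjamini-Hochberg over 15762 probe sets) passed 0 probe sets (0%), with 458 (2.91%) at an unadjusted p under 0.05 and a smallest adjusted p of 0.896. For Mt2 the TCDD minus solvent value of the difference was -0.83 with a standard error of 0.44. The sets come from the data, so these p-values are conditional on them. Among the 10 smallest p-values were Il6ra, an interleukin-6 receptor subunit, at 1.00 with a standard error of 0.22, and Lum, a matrix proteoglycan, at -1.07 with one of 0.23, neither past the adjustment. A missed threshold does not show that the difference was the same in both treatments.

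Treatment and time, which the rule did not use, were tested for the 4 marker genes. The mean Mt1 level was 8.68 ± 1.59 (SD, n = 6) with TCDD and 8.43 ± 1.72 (SD, n = 6) in solvent, a difference of 0.25 (exact two-sided permutation p = 0.9722 within times, where the smallest possible p was 0.0093). Averaged over the times, TCDD against solvent passed limma's test at 15 probe sets (0.0952%; 46 with the set as a block, and 24 and 23 without the first and the second 4 h TCDD array) but at none of the markers, whose estimates were 0.25 for Mt1, 0.23 for Mt2, 1.20 for Ptgs2 and 0.48 for Hmox1. At 6 h against 2 h, 0 probe sets passed (0%; 1748, or 11.1%, unadjusted), and Mt1 differed by 0.30 and Mt2 by 0.80. Mt1 was higher on the second than on the first array in 5 of 6 groups, by 1.65 on average (exact two-sided sign-flip permutation p = 0.1562, smallest possible 0.0312). Both permutation tests used the Mt1 levels that defined the sets. Since 5 of 6 groups held 1 array of each set, the split made most of the spread of Mt1. Neither test can therefore decide on treatment or replicate number, and nothing is concluded from them.

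The difference between the sets was also compared between 2 h and 6 h. Of the 64 higher probe sets, 44 had a larger mean in the 2 h than in the 6 h pairs, whereas Mt1 went from 2.75 to 3.45 and Mt2 from 2.75 to 3.85. That share over all probe sets was not computed, so nothing is read from the count of 44. A test of set by time, added after these values had been seen, passed 37 probe sets (0.235%; limma, Benjamini-Hochberg), 34 with a smaller or more negative difference at 6 h (0.216%, 28 named genes) and 3 with a more positive one (0.019%). As for set by treatment, the p-values are conditional on the sets. Of the 34, 22 had a mean of 1 or more at 2 h. F3, which encodes tissue factor, the trigger of coagulation, stood at 9.2 and 8.7 on the high arrays of 2 h, at 6.7 on that of 4 h and at 6.9 and 6.6 on those of 6 h, against 6.8 to 7.7 on the low arrays. Its high arrays were thus above the low ones at 2 h only, and the 6 h minus 2 h value of the difference was -2.65 with a standard error of 0.15 (limma adjusted p = 0.0313). Nr4a1, an orphan nuclear receptor of the immediate early class, had means of 2.30 at 2 h and -0.05 at 6 h (limma adjusted p = 0.032), and Ankrd1, a stress-responsive nuclear protein, of 2.35 and -0.25 (limma adjusted p = 0.032). Srf, the serum response factor that drives many immediate early genes, went from 1.65 to -0.30, and Fhl2, a LIM protein that acts with it, from 1.95 to -0.30. Of the markers, Hmox1 passed (2.15 and 0.60, limma adjusted p = 0.0442), while Mt2 and Ptgs2 did not (limma adjusted p = 0.163 and 0.0855), and Mt1, which defined the sets, is given by its values alone. By list, 5 of 27 immediate early genes and 3 of 13 EGFR genes passed, against 0.235% of all probe sets. The lists of 17 heat shock genes (Dnajb1), 22 NRF2 targets, 24 G1/S genes and 36 matrix genes gave 1 each, from which nothing is read. In the opposite direction stood Lrrc14, with means of -1.30 at 2 h and 0.25 at 6 h, Ung, a DNA repair glycosylase gene, with -0.95 and 0.65, and Utp20, a ribosome assembly gene, with -0.10 and 1.55. The sets follow the replicate number at both times, the test had 3 residual degrees of freedom, and leaving out any array but those of the 4 h TCDD group, using only the 8 arrays of 2 h and 6 h, adding the replicate number as a block or weighting the arrays left 0 calls.

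**Figure D5:**
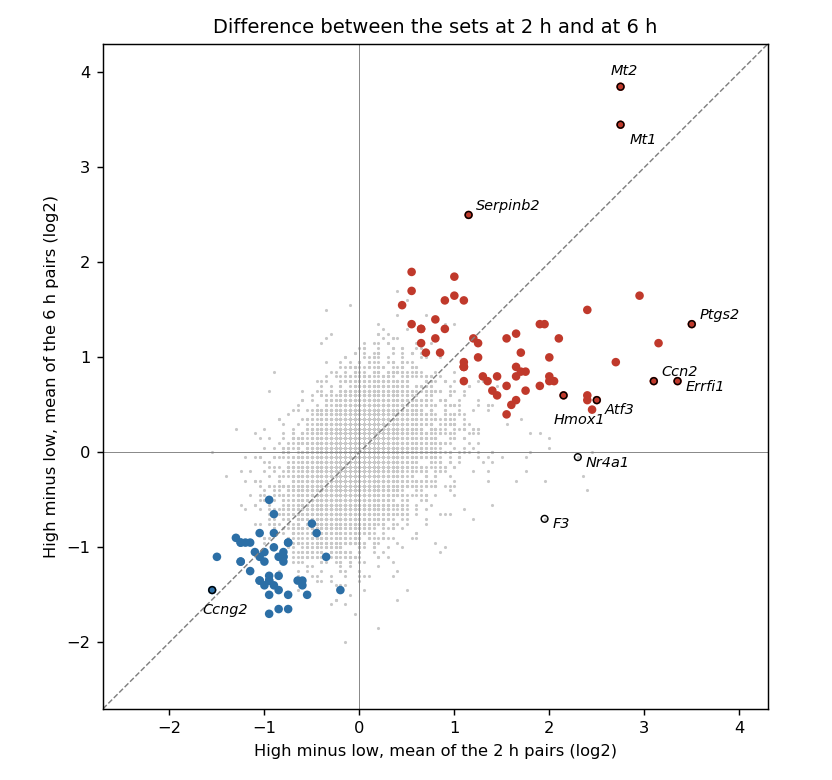
Mean high minus low log2 difference in the 2 h pairs (horizontal axis) and in the 6 h pairs (vertical axis) for 15762 probe sets; red points were called higher and blue points lower over all 5 pairs, and the dashed line marks equal values. Mt1, Mt2 and Serpinb2 lie above the line, Ptgs2, Ccn2, Errfi1, Atf3 and Hmox1 below it, and Nr4a1 and F3 are at 2.30 and 1.95 at 2 h but at -0.05 and -0.70 at 6 h.

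The genes most like Mt1 were found by the Pearson correlation with its probe set over the 12 arrays, a description, since the sets themselves make most of it. Mt2 was first at 0.98, followed by Timp3 and the matrix glycoprotein gene Tnc at 0.96. Glrx, which encodes glutaredoxin, reached 0.95 with a small and even difference: 0.62 ± 0.13 over the pairs. Hspa8, the constitutive heat shock cognate, reached 0.95 at one of its probe sets with a difference of 0.34 ± 0.05, while its 3 others ranged from 0.12 to 0.56. The splicing factor gene Srsf6 differed by 0.52 ± 0.18, the tropomyosin gene Tpm1 by 0.60 ± 0.16 and the RNA helicase gene Ddx18 by 0.92 ± 0.15. Opposite to Mt1, Zfyve21, Stmn1 and Pcolce each had r of -0.97. Zfyve21, a protein of focal adhesions, was lower by -1.22 ± 0.22 without overlap, whereas Stmn1, a microtubule-destabilising protein, at -0.44 ± 0.11, and Pcolce, an enhancer of procollagen processing, at -0.36 ± 0.09, differed little but in each pair.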

How the data were processed

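RNA was measured on 12 Affymetrix arrays. The submitters' processing notes name RMA as the method behind the log2 values that the authors deposited; the version, software and genome build are not given in the sources used here. All 12 columns were used and 0 columns of values were left out; no scanner files were used here, and 2 arrays per group limit the precision. RMA equalises the arrays' distributions and compresses differences near background. Of 22626 non-control probe sets, the platform annotation gave 20380 1 gene symbol, 691 several and 1555 none; only the first kind was named, and 20364 matched a RefSeq table of GRCm38.p6 by gene identifier, with 0 symbols changed. Groups follow the titles.

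Pair differences, SDs and overlap were computed with pandas 2.3.3 in Python 3.11.15. Tests used limma 3.58.1 in R 4.3.3 with 6 group means, without a replicate block, and were checked on simulated data. Within a time, replicate differences of solvent and TCDD correlated with r of 0.37 at 2 h, 0.16 at 4 h and 0.71 at 6 h, so the numbers may pair arrays within a time; a block for this was added. Adjusted p under 0.05 counted as passed. A gene of a list is represented by its brightest tested probe set.

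Named are the 4 markers, the zinc list, the 15 highest and 15 lowest called genes, up to 4 members per list with the largest differences, the 10 smallest p-values of set by treatment, and the 10 most like and 5 most unlike Mt1; the 10 smallest p-values of set by time and the other genes named were added after values were seen. The 15 highest and 15 lowest genes were each taken at the called probe set with the largest difference, which favours large sizes. The sets, lists and members were chosen with earlier results of these data known. The alternatives tried were the filter, the size of the call, overlap, single arrays and pairs, the replicate block, array weights and a variance trend. Promoters matched for 33 of 48 higher and 24 of 38 lower genes.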

Additional observations from a re-analysis of the deposited data

Results flagged for a closer look

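For 51 probe sets, the spread was examined in both sets (102 combinations). In 4 combinations the gap between 1 array and the next was large for the range of its set, though not always large in log2. Chance alone flags about 1 in 20 such groups, so nothing is read from these 4. Igdcc4 was at 6.4 on the low TCDD array of 4 h, with the next low array at 6.6. Slc30a4, a zinc transporter gene, was at 5.1 and Slc30a9 at 5.4 on the high TCDD array of 4 h, with the next high arrays at 6.8 and 5.8. Marcks was at 10.0 on the low solvent array of 6 h, with the next at 9.7.

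The named probe sets below passed limma's test of set by time with a lower difference at 6 h than at 2 h. That test was added after the values had been seen, and its p-values are conditional on the sets. No call remained with the replicate block, with array weights or with the 8 arrays of 2 h and 6 h alone. Nor did any remain when an array outside the 4 h TCDD group was left out. The 6 h minus 2 h values in log2 were F3 -2.65, Ankrd1 -2.60, Nr4a1 -2.35, Fhl2 -2.25, Phlda1 -1.95, Atf3 -1.95, Srf -1.95, Dnajb1 -1.55 and Hmox1 -1.55. Errfi1 gave -2.60 at 1416129_at and -1.75 at 1419816_s_at, and Hbegf gave -1.85 at 1418349_at and -1.80 at 1418350_at. Phlda1, a feedback gene of growth factor signalling, had means of 2.00 at 2 h and 0.05 at 6 h, and Dnajb1, a co-chaperone, of 1.50 and -0.05.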

How the results depend on the processing

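The 112 called probe sets became 113 without a filter, 72 with a filter at 6, 753 at a size of 0.58 and 5 at a size of 2 (5 higher, 0 lower), 812 by overlap alone, 298 in the TCDD pairs alone and 123 in the solvent pairs alone. Leaving out single arrays gave 99 to 217, and the highest count came without either 2 h solvent array (71 higher, 146 lower). An array of a matched pair was left out together with its partner. The sign rule then covered fewer pairs, as it did for the TCDD or solvent pairs alone, so these counts do not follow an equal rule. The 37 calls of set by time became 18 without a filter, 145 with a filter at 6, 83 with a variance trend, and 0 with array weights or with the 8 arrays of 2 h and 6 h alone; leaving out single arrays gave 0 to 37, with 0 for each array but those of the 4 h TCDD group. Set by treatment passed 0 probe sets under every alternative run. The cause of these changes was not tested, apart from the stricter or looser size rules. The TCDD minus solvent value of Mt1 ran from -0.33 to 0.83 without single arrays. With the set as a block it was -0.25, and that of Mt2 was -0.28; that of Mt2 ran from -0.43 to 0.90 without single arrays. At 6 h against 2 h, Mt1 ran from -0.575 to 1.175 and Mt2 from -0.20 to 1.80 without single arrays. The set by treatment value of Ptgs2 was 0.0678 with array weights and ran from -2.03 to 0.87 without single arrays, and that of Hmox1 from -0.43 to 0.97, with -0.05 without either 4 h TCDD array. None of these passed.

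Over all times replicate numbers did not pair the arrays: the second minus first differences of 2 groups correlated with r from -0.55 to 0.71, over 0.1 for 7 of 15 pairs of groups. With the replicate block the called set difference was 210 probe sets (77 higher, 133 lower), set by time passed 0 and set by treatment 0, and none of the markers passed for treatment or time. With the replicate block within each time, chosen after seeing the data, TCDD against solvent passed 16 probe sets in place of 15 and no other call changed; the set by treatment value of Hmox1 was -0.05. Set by time could not be fitted with it.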

Other observations

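The called genes given here were chosen after their values were seen, and all but Has2 lie outside the lists. Pvr, the poliovirus receptor and an adhesion molecule, was called higher at 3 probe sets, with mean pair differences of 1.04, 1.18 and 1.38, each without overlap. Klf5, a transcription factor of proliferating epithelium, was higher by 1.32 ± 0.68, with means of 2.00 at 2 h and 0.75 at 6 h. Has2, which encodes a hyaluronan synthase, was higher by 1.20 ± 0.45 at one probe set and by 0.94 ± 0.60 at its brighter one, which was not called. Gch1, the first enzyme of tetrahydrobiopterin synthesis, was higher by 1.30 ± 0.65. Rrs1 and Ddx21, proteins of ribosome assembly, were higher by 1.34 ± 0.32 and 1.00 ± 0.55, both without overlap. Among lower genes, Ccn5, a relative of Ccn2, stood at -1.0 ± 0.19 and thus opposite to Ccn2, and Ogt, the enzyme that attaches N-acetylglucosamine to proteins, stood at -1.22 ± 1.19 with overlap.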
